A study of Mus musculus with 20 samples.

Results

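The Ifitm family is represented here by Ifitm1, Ifitm2, Ifitm3 and Ifitm6, 4 of the 24315 genes measured in LSK and MEP cells of mouse bone marrow (BM). The 4 genes were selected on the values themselves, because Ifitm6 was lower in Bcor-/- LSK and higher in double knockout LSK, so those differences are given as a description and are not tested. LSK cells (Lin-Sca1+Kit+) are the compartment of haematopoietic stem cells and early progenitors, and MEP are the megakaryocyte-erythroid progenitors (Lin-Sca1-Kit+, CD34-, with low or no Fc gamma receptor). RNA was sequenced in C57BL/6 mice of 4 genotypes, wild type (WT, 3 libraries per cell type), Dnmt3a-/- (3), Bcor-/- (2) and Bcor-/-Dnmt3a-/- (2, called double knockout below). Each mouse label occurs on both an LSK and a MEP library. The mutant mice carried Mx1-Cre, a recombinase under an interferon-inducible promoter, which was switched on with pIpC, itself an inducer of interferon. The column names of the mutant libraries hold the word Cre and those of the WT libraries do not. WT and Dnmt3a-/- columns share the letters XY, where the Bcor-/- and double knockout columns hold BCOR. The column names do not explain XY, and the study writes Bcor-/- for homozygous and for hemizygous mice. Any difference of mouse line or sex that follows these letters cannot be told apart from Bcor loss here. The study lists WT controls among the mice whose blood was measured before and after pIpC. Whether the WT mice sequenced here received pIpC, the age of the mice, and the time since pIpC at which these RNAs were taken are not given in the sources used here. Bcor lost exons 8 to 10, the study describes Dnmt3a deletion in the single knockout as partial, and it compares leukaemic double knockout mice, although the labels give no disease stage. In either cell type, 1 of the Bcor-/- libraries carries the names of 2 mice.

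The IFITM proteins are short membrane proteins that are induced by interferons and restrict the entry of enveloped viruses at the cell surface and in endosomes. Ifitm3 is the best known of them as an antiviral factor, Ifitm1 and Ifitm2 are its close relatives, and Ifitm6 is a mouse gene known from myeloid cells. Stem cells of several tissues hold high levels of Ifitm1, Ifitm2 and Ifitm3 without any infection. Interferon acts through response elements in promoters, which are bound by factors of the STAT and IRF families.

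The promoters of the 4 genes are shown because their interferon elements differ in number. In RefSeq (GRCm38.p6) all 4 genes matched by symbol and lay side by side on chromosome 7 in the order Ifitm2, Ifitm1, Ifitm3, Ifitm6, with Ifitm1 on the plus strand and the other 3 on the minus strand. Each window holds 250 bases before the start of the gene and 30 from the start on, and reads 5′ to 3′ along the gene. Capitals mark matches to GAAANNGAAA, the letters used for the interferon-stimulated response element, searched on both strands.
Ifitm1, chr7:140967826-140968105, plus strand: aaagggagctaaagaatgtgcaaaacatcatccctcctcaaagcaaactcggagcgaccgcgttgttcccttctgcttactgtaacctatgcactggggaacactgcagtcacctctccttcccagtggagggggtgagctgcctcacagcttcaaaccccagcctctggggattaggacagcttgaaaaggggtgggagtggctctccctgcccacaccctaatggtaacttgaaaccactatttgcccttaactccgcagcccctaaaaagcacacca
Ifitm2, chr7:140955932-140956211, minus strand: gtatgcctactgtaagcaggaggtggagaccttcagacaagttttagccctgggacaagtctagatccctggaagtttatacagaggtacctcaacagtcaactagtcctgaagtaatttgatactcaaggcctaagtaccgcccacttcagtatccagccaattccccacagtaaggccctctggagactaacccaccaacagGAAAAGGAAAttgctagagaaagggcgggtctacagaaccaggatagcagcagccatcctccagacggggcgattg
Ifitm3, chr7:141010715-141010994, minus strand: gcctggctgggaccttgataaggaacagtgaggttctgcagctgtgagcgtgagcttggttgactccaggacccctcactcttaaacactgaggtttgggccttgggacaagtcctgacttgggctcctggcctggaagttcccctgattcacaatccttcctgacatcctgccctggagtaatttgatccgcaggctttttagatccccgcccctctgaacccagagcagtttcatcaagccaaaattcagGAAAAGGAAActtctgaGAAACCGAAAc
Ifitm6, chr7:141016863-141017142, minus strand: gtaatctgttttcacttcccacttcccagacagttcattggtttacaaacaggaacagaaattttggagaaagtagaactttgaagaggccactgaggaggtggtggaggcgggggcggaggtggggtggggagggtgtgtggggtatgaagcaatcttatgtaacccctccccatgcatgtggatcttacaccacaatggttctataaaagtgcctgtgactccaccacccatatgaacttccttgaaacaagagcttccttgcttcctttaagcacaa

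Ifitm3 had 2 matches, beginning at bases 3 and 20 of the gene, and Ifitm2 had 1, beginning at -46. In Ifitm1 and Ifitm6 these letters were found 0 times. Of 32851 promoter windows of this length in the RefSeq table, 3.28% held at least 1 match. The letters TTCNNNGAA of the gamma-interferon activation site occurred in 7.83% of windows, among them Ifitm3 at base 14 of the gene, overlapping the latter of its response elements, and Ifitm6 at -10. A match of letters is not evidence of binding. In the GENCODE annotation of GRCm38 the genes have 2 or 3 exons, and Ifitm2 shares its place and strand with the read-through gene model Gm45717. Of the runs of 50 bases in the transcripts of Ifitm6, 0% were found in any other gene, against 5.02% for Ifitm1, 10% for Ifitm3 and 48.5% for Ifitm2, most of them in Gm45717 and other predicted genes. The division of reads between Ifitm2 and these genes is therefore uncertain. The processing notes name build mm9, so the tables were joined to these sequences by gene symbol alone.

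In WT LSK, Ifitm1, Ifitm2 and Ifitm3 were among the most abundant RNAs, while Ifitm6 was far lower and unequal between mice. Levels are FPKM, fragments per kilobase of transcript and per mapped fragments. Being per length, they can be set beside each other between genes, but how exact this is for these genes was not tested. For Ifitm2 the division of reads is uncertain, as given above. The WT LSK mean was 451 ± 43.2 FPKM for Ifitm2, 349 ± 44.7 for Ifitm1 and 293 ± 26.7 for Ifitm3 (SD, n = 3), between the percentiles 99.4 and 99.7 of all genes, and 26.6 ± 19.4 for Ifitm6, at percentile 84.5. The levels of Ifitm2 in WT (421 to 501 FPKM) did not overlap with those of Ifitm1 (309.5 to 398), and Ifitm3 (270.1 to 322) overlapped with Ifitm1. In WT MEP the order was Ifitm2 (271 ± 13.8 FPKM, n = 3), Ifitm3 (67.1 ± 12.3), Ifitm1 (23.2 ± 13.4) and Ifitm6 (3.79 ± 1.71), and the ranges of these 4 genes did not overlap. Within a WT mouse, LSK held 9.55 to 34.5 times the MEP level of Ifitm1, 2.82 to 14.0 times that of Ifitm6, 3.58 to 5.79 times that of Ifitm3 and 1.53 to 1.81 times that of Ifitm2. The LSK and MEP values come from separate tables whose scaling to each other is not stated, so these ratios are side by side values with no test. The other genes of the family that have a row in the tables, Ifitm5, Ifitm7 and Ifitm10, reached at most 2.825 FPKM in any library, and Ifitm5 was listed at 0 in both double knockout LSK libraries.

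**Figure D1:**
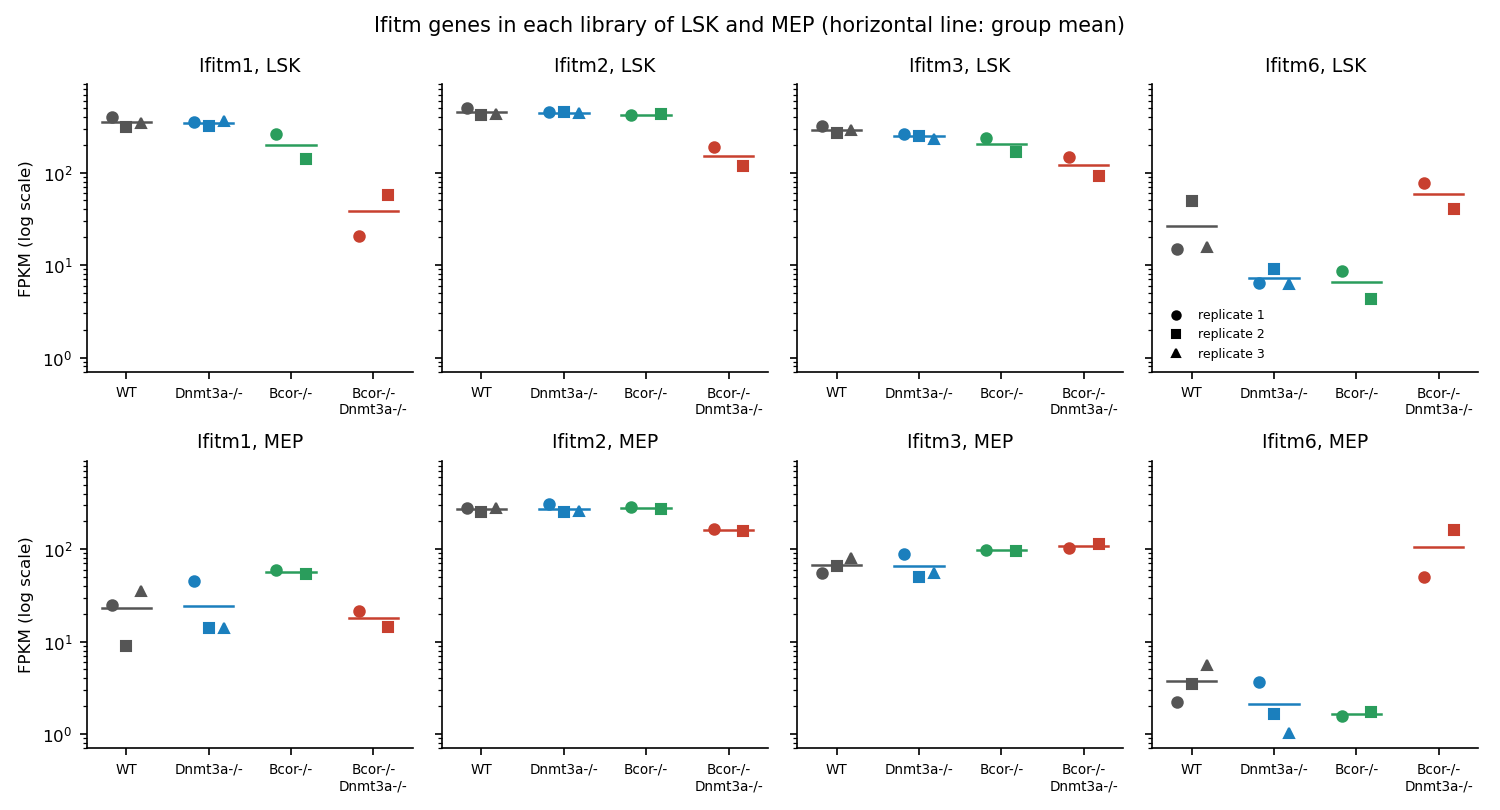
FPKM on a log axis of the 4 genes (columns) in each library of LSK (top) and MEP (bottom), by genotype, with the group mean as a line and the replicate number as the symbol. Ifitm1, Ifitm2 and Ifitm3 are below every WT library in both double knockout LSK libraries, and Ifitm6 in MEP is 50.4 and 163 FPKM in the double knockout against at most 5.63 in the other 8 libraries.

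Both double knockout libraries stood apart from the rest before any gene was considered. Over the genes tested, the double knockout replicates correlated with each other at 0.849 in LSK and 0.815 in MEP, while other replicates of 1 genotype reached at least 0.973 and 0.971. In the other genotypes the stem and progenitor marker Cd34 had 264.5 to 650.1 FPKM in LSK and 4.46 to 60.6 in MEP. Sca1 (Ly6a) had 31.1 to 107.3 FPKM in LSK and at most 1.80 in MEP, so these 2 genes separated the cell types there. Bcor-/- LSK still differed in other markers. Its granulocyte markers summed to 18520 and 26510 FPKM against 3619 to 13730 in WT, and its stem cell markers to 948 and 631 against 1247 to 1468. In double knockout LSK, Cd34 was 5.87 and 37.3 FPKM and Kit 47.7 and 19.4 against 148 to 174 in WT, whereas Ly6a was present at 63.5 and 220.2 FPKM. The same 2 libraries held the erythroid gene Hbb-b1 at 2825 and 12340 FPKM against 14.1 to 57.8 in WT, and the B cell gene Cd79a at 736 and 466 FPKM against 4.20 to 16.2. The listed markers of B and T cells summed to 3400 and 1336 FPKM against 253 to 330.1 in WT, with Igll1 (997 FPKM) and Vpreb1 (878) high in the first replicate alone, and the erythroid markers summed to 6940 and 24320 FPKM against 131 to 248. The markers of monocytes and macrophages summed to 1460 and 1610 FPKM against 323 to 769 in WT, and to 1182 and 1427 in Bcor-/- LSK, and C1qa was 360 FPKM in the first double knockout replicate and 7.38 in the second against 6.93 to 61.4 in WT. Markers of other lineages were thus abundant in the libraries labelled double knockout LSK, and their part in the differences of the Ifitm genes was not tested. The RNA of the deleted genes gave a weak check of the labels, with Bcor in LSK between 29.6 and 32.4 FPKM in WT, at 22.4 and 23.2 in Bcor-/- and at 24.0 and 37.5 in the double knockout, and Dnmt3a at 11.3 to 16.9 FPKM in Dnmt3a-/- LSK against 16.1 to 19.9. The double knockout LSK libraries had 10.35 and 10.9 FPKM of Dnmt3a, both below every WT library. In MEP it did not separate the labels, since Bcor was 19.5 and 22.4 FPKM in Bcor-/- and 19.6 and 26.7 in the double knockout against 21.4 to 26.9 in WT. Dnmt3a in MEP was 2.56 to 5.399 FPKM in Dnmt3a-/- and 5.49 to 6.64 in WT, but 6.85 in the library labelled double knockout replicate 1, above every WT library, and 3.44 in replicate 2. The genotypes are given as labelled, and FPKM of a whole gene does not show which exons were read. In bulk samples like these, fewer cells of a type and less RNA per cell cannot be told apart. Read counts are not given. The steps between low values gave the libraries 0.79 to 1.61 times the apparent depth of WT replicate 1 in the same table. Any scaling between libraries, which is not stated, would enter these values, so they do not measure sequencing depth alone. The p-values measure the spread between these libraries, which stands for separate mice as far as the labels name them.

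The first question was which members differed in cells without Dnmt3a, the DNA methyltransferase. In LSK, Ifitm1, Ifitm2 and Ifitm3 were nearly level and Ifitm6 was lower. Ifitm6 was at 6.46, 8.99 and 6.27 FPKM in the Dnmt3a-/- libraries and at 15.0, 49.0 and 15.9 in WT. All 3 mutant values lay below the lowest WT value, and the second WT library stood above the other 2. Of all genes tested, 4.98% lay below every WT library in this way. On the scale of log2(FPKM + 1), used for all differences below, Ifitm6 fell by 1.54 (SE 0.45, 95% interval -2.56 to -0.53, limma p = 0.0075, exact permutation p = 0.1), past the limits for a call of p under 0.05 and a fold change above 1.5. It was the 13th lowest difference of the 11952 genes tested, of which 53 (0.443%) were called in either direction. The adjusted p was 1, an exact permutation test of 3 libraries against 3 cannot go below 0.1, and without WT replicate 2 the difference was -1.01. These WT libraries are also those against which Ifitm6 was selected, so the comparison is not independent of the selection.

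Ifitm1 had 357, 320.5 and 358 FPKM in Dnmt3a-/- LSK, within the WT range, and differed by -0.01 (interval -0.79 to 0.76). Ifitm2 had 437.5 to 453 FPKM and also differed by -0.01 (interval -0.38 to 0.36). Ifitm3 had 264, 249 and 233 FPKM, all below the lowest WT value of 270.1, but the difference of -0.23 (interval -0.66 to 0.19) was not called (adjusted p = 1). A change of Ifitm1, Ifitm2 and Ifitm3 in Dnmt3a-/- LSK was therefore not detectable with these libraries.

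In Dnmt3a-/- MEP 0 of the 4 genes were called by limma and 0 had an unadjusted p under 0.05, beside 45 of 10933 genes (0.412%) called. Ifitm6, at 3.69, 1.65 and 1.01 FPKM against 2.25, 3.49 and 5.63 in WT, overlapped with WT and differed by -0.65 (interval -1.73 to 0.43, adjusted p = 1). Ifitm1 was scattered in both genotypes, with 45.4, 14.0 and 14.1 FPKM in the mutant and 24.97, 8.96 and 35.7 in WT, and differed by 0.05 (interval -1.21 to 1.31). The differences of Ifitm2 (0.00, interval -0.22 to 0.23) and Ifitm3 (-0.07, interval -0.56 to 0.41) were small beside their intervals.

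The second comparison concerned Bcor, a subunit of a non-canonical Polycomb repressive complex. In Bcor-/- LSK the family was lower except for Ifitm2, which is a description of the contrast that chose the genes. Of all genes tested, 27% were below every WT library there, which with 2 libraries against 3 is a common pattern. Ifitm6 had 8.68 and 4.32 FPKM, both below WT, a difference of -1.73. Ifitm1 had 263 and 139 FPKM, also both below WT, with the replicates apart by 1.88 times, and differed by -0.86, which was -1.31 without Bcor-/- replicate 1 and -0.40 without replicate 2. Ifitm3 had 238 and 168.5 FPKM (-0.54, both below WT, from -0.79 without replicate 1 to -0.30 without replicate 2), and Ifitm2 had 417 and 428 (-0.09, overlapping with WT). Among all 11952 genes, 1581 (13.2%) were called in this contrast.

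In Bcor-/- MEP, by contrast, Ifitm1 was higher than in WT. Its 2 libraries had 59.0 and 53.7 FPKM against 9.0 to 35.7 in WT, and both lay above every WT library, as did 14.7% of all genes tested. The difference of 1.44 (SE 0.62, interval 0.03 to 2.84, limma p = 0.046, exact permutation p = 0.2) was called, as were 302 of 10933 genes (2.76%), and ranked 23rd among the higher ones. The adjusted p was 0.885, and the call was lost without WT replicate 1 or 2, without either Bcor-/- library, and without Dnmt3a-/- replicate 2 or 3, which enter the shared estimate of the spread, with differences between 0.89 and 1.58. Ifitm3 was also above every WT library, at 97.9 and 96.1 FPKM against 55.6 to 80.2, but its difference of 0.54 (interval -0.01 to 1.09, adjusted p = 0.913) just missed the call. Ifitm6, at 1.57 and 1.74 FPKM, was below every WT library, as were 16.1% of all genes, and differed by -0.79 (interval -1.996 to 0.41, adjusted p = 1), not called. Ifitm2 was level, with 285 and 270.3 FPKM and a difference of 0.04 (interval -0.22 to 0.29).

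Of the markers of stem and progenitor cells, some varied with Ifitm1 between MEP libraries and others did not. Cd34, which the MEP gate leaves out, was at 56.9 and 30.04 FPKM in Bcor-/- MEP, and in WT it was 23.9, 5.43 and 60.6 FPKM, lowest in the library where Ifitm1 was lowest and highest where Ifitm1 was highest. The Dnmt3a-/- replicate with the higher Ifitm1 had 44.1 FPKM of Cd34 and the other 2 had 4.46 and 6.08. Over the 8 libraries without the double knockout, Ifitm1 and Cd34 correlated at 0.91 and Ifitm1 and Meis1 at 0.93, as a description in which libraries share genotypes. The other way, Mllt3 correlated with Ifitm1 at -0.91, with 25.1 FPKM in the WT library lowest in Ifitm1 and 18.5 and 16.0 in Bcor-/-, and Kit was 67.6 and 79.0 FPKM in Bcor-/- against 77.0 to 83.5 in WT. The median correlation over the 9 markers was 0.80. Of 9 stem cell markers tested in Bcor-/- MEP, 6 had a positive difference, 0 had an unadjusted p under 0.05 by limma, and the median was 0.40, against -0.01 over all genes. Ly6a, at most 1.80 FPKM in the other genotypes, is among the 9 only through the double knockout, where it was 17.8 and 1.87 FPKM. Their part in the difference of Ifitm1 was not tested.

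In double knockout LSK the family divided. Ifitm1, Ifitm2 and Ifitm3 were below every WT library, as were 24.1% of all genes tested, and Ifitm6 was high. Ifitm1 had 20.4 and 56.7 FPKM, a difference of -3.31 from WT, the 25th lowest of 11952 genes. It was -2.59 without double knockout replicate 1 and -4.02 without replicate 2. Ifitm2 had 189 and 118 FPKM (-1.59), and Ifitm3 147 and 92.6 (-1.32). Ifitm6 had 77.3 and 40.0 FPKM, a difference of 1.25, and overlapped with WT, since WT replicate 2 had 49.0. Without that WT library the difference was 1.79, and without double knockout replicate 1 it was 0.79. These values are a description, in a contrast where 3383 genes (28.3%) were called.

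Against Bcor-/- LSK, which differs from the double knockout by Dnmt3a and, as far as the double knockout mice were leukaemic, by disease, which cannot be told apart here, the same division was seen. Ifitm6 was 9.02 times as high by the group means, a difference of 2.98, and both libraries were above both Bcor-/- libraries, as for 28.1% of all genes. Ifitm1, Ifitm2 and Ifitm3 were below both Bcor-/- libraries, as were 31.2% of all genes. Ifitm1 differed by -2.45, between -3.17 without double knockout replicate 2 and -1.74 without replicate 1. Ifitm2 differed by -1.50 and Ifitm3 by -0.77, the latter between -1.10 without double knockout replicate 1 and -0.45 without replicate 2. In this contrast 3654 genes (30.6%) were called. It shares the double knockout libraries with the comparison to WT.

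**Figure D2:**
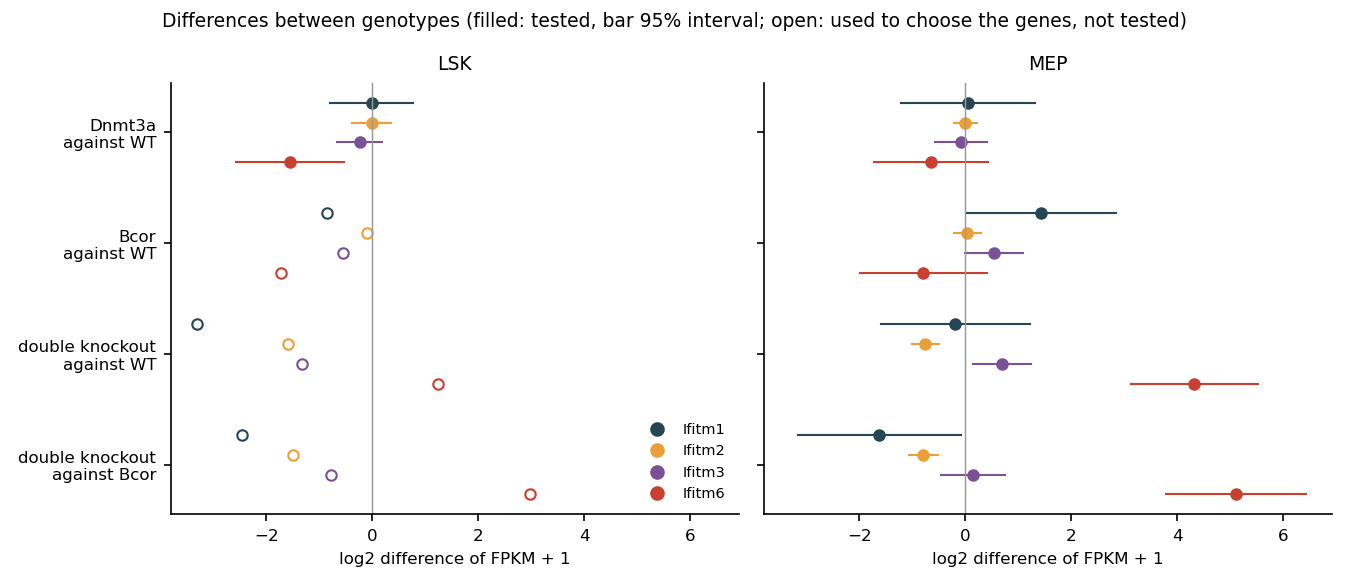
Differences of log2(FPKM + 1) of the 4 genes in LSK (left) and MEP (right) for 4 comparisons of genotypes, where DKO is written as double knockout, filled points were tested and carry their 95% interval, and open points come from the comparisons that chose the genes. Ifitm6 lies furthest right in both double knockout comparisons in both cell types, at 1.25 and 2.98 in LSK and 4.32 and 5.11 in MEP.

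MEP gave a measure of the double knockout that the selection did not use, although the mice were the same. These libraries too differed from WT in markers of cell type. Kit, one of the genes of the gate, was 38.1 and 20.3 FPKM against 77.0 to 83.5 in WT (-1.51, limma adjusted p = 0.0022), and Ly6a, which the gate excludes, was 17.8 FPKM in the first replicate against at most 0.79 in WT. The B and T cell markers summed to 2811 FPKM in the first replicate and 301 in the second against 96.1 to 203 in WT, and the erythroid markers to 5827 and 99040 FPKM against 3745 to 5415, with Hbb-b1 listed at 0 in the second replicate beside 55200 FPKM of Hba-a1. Their part in the differences below was not tested.

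Ifitm6 had been 2.25, 3.49 and 5.63 FPKM in WT and rose to 50.4 and 163 in the double knockout, so that every double knockout value was above every value of the other genotypes. Above every WT library were 24.6% of all genes tested. The group mean was 28.1 times the WT mean, and the difference was 4.32 (SE 0.53, adjusted p = 0.0010 by limma). It ranked 31st from the top among 10933 genes, of which 3376 (30.9%) were called in either direction. The 2 libraries were unequal, and the difference was 3.49 without double knockout replicate 2 and 5.16 without replicate 1. The exact permutation p was 0.1, the smallest that 2 libraries against 3 can give. Where each genotype had its own variance, Ifitm6 had an adjusted p of 0.079 and Ifitm2, described next, of 0.17 by limma, and both were still called.

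Ifitm2 fell in double knockout MEP to 164 and 157 FPKM, where WT had 276, 256 and 282. The difference of -0.75 (SE 0.11) was called (limma adjusted p = 0.0019), with no overlap between the groups, as for 25.8% of all genes in that direction. Ifitm3 was higher, at 102 and 113 FPKM against 55.6, 65.6 and 80.2, and its difference of 0.69 (SE 0.24, limma p = 0.020, exact permutation p = 0.1) was called. The adjusted p of Ifitm3 was 0.057, and the call was lost without WT replicate 1 (0.56), without double knockout replicate 2 (0.61) and with 1 variance per genotype. Ifitm1, at 21.5 and 14.3 FPKM, lay within the WT range of 8.96 to 35.7 and differed by -0.19 (interval -1.60 to 1.21, adjusted p = 0.832).

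Against Bcor-/- MEP, Ifitm6 rose from 1.57 and 1.74 FPKM to 50.4 and 163, a difference of 5.11 (SE 0.58, adjusted p = 0.0012 from limma), the 14th highest of all genes, of which 29% were above both Bcor-/- libraries and 30.5%, among them Ifitm1 and Ifitm2, below both. It was 4.28 without double knockout replicate 2 and 5.95 without replicate 1. Ifitm2 fell by 0.79 (SE 0.12, limma adjusted p = 0.0033). Ifitm1 fell by 1.63 (SE 0.67, limma p = 0.041, adjusted p = 0.11, exact permutation p = 0.3333), a call that was lost without either Bcor-/- library, without double knockout replicate 2 and without WT replicate 1. Ifitm3 differed by 0.15 (interval -0.45 to 0.74) and was not called. Of all genes 3045 (27.9%) were called, and an exact permutation test of 2 against 2 cannot go below 0.3333. The comparisons with WT and with Bcor-/- use the same double knockout libraries.

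The make-up of the family's RNA in each library followed from these levels. In LSK the 4 genes summed to 1050 to 1236 FPKM in WT and 1032 to 1076 in Dnmt3a-/-. The sum was 926 and 740 FPKM in the Bcor-/- libraries and only 433 and 307 in the double knockout. In MEP the sum was 318 to 446 FPKM in the 8 other libraries and 338 and 447 in the double knockout, so it was not lowered there. Ifitm6 made up 0.58% to 4.67% of the sum in the 8 other LSK libraries and 17.9% and 13.04% in the double knockout. In MEP it made up 0.31% to 1.40% in the 8 other libraries and 14.9% and 36.4% in the double knockout. Ifitm1 gave 29.5% to 34.6% of the sum in WT and Dnmt3a-/- LSK, 28.4% and 18.8% in Bcor-/- LSK, and 4.71% and 18.5% in double knockout LSK.

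**Figure D3:**
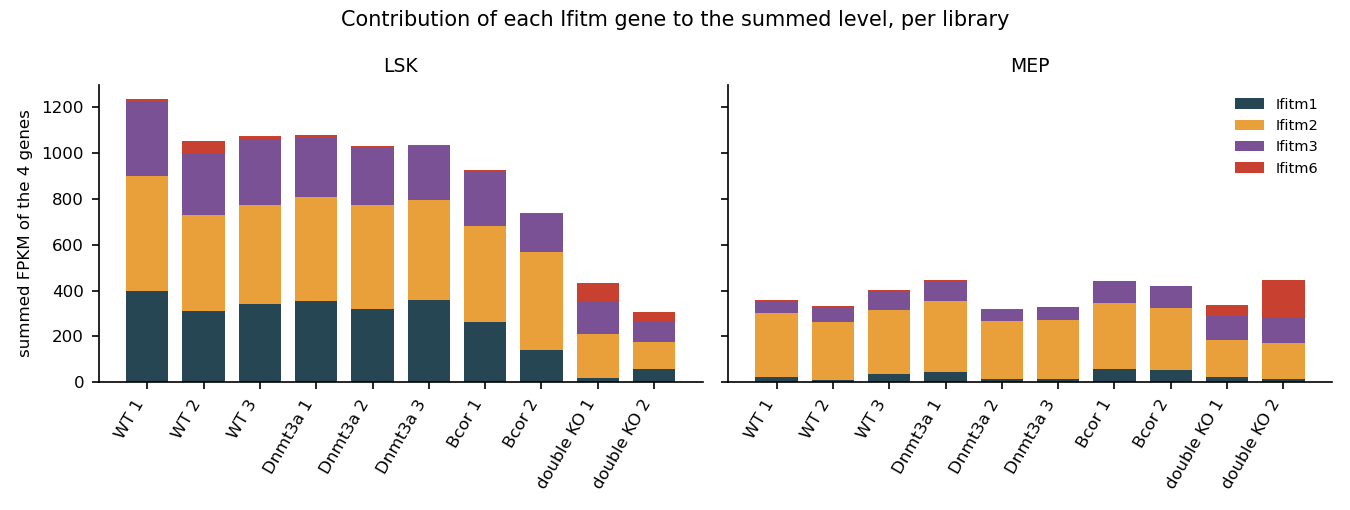
Summed FPKM of the 4 genes per library in LSK (left) and MEP (right), with bars starting at 0 and divided by gene. The LSK bars of the double knockout (433 and 307 FPKM) are the shortest, and Ifitm6 forms a visible part of a bar mainly in the double knockout libraries of either cell type.

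The ratio of LSK to MEP was below every WT mouse for all 4 genes in both double knockout mice. The same held for 23.9% of the 10582 genes tested in both tables and above 0 in every MEP library. For Ifitm1 and Ifitm3 the ratio was also below every WT mouse under both Bcor-/- labels, of which 1 names 2 mice, as for 21.6% of those genes. Within a label, Ifitm1 in LSK was 7.86 to 25.4 times its MEP level in Dnmt3a-/-, 4.45 and 2.60 times in Bcor-/-, and 0.952 and 3.96 times in the double knockout. Ifitm3 went from 3.58 to 5.79 times in WT to 2.43 and 1.75 times in Bcor-/- and 1.44 and 0.819 times in the double knockout. Ifitm2 was at 1.46 and 1.58 times in Bcor-/-, overlapping with the 1.53 to 1.81 times of WT, and at 1.15 and 0.751 times in the double knockout. For Ifitm6 the ratio was 5.55 and 2.49 in Bcor-/-, overlapping with WT, and 1.53 in the first double knockout mouse and 0.246 in the second, the only mouse in which MEP held more Ifitm6 than LSK.

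Ifitm6 is known from myeloid cells, so its level was set beside granulocyte markers library by library. In LSK it was high in the libraries with high levels of the late granule genes Ltf and Ngp, which were picked from 13 markers after their values had been seen. It was lowest in the second Bcor-/- library, where the early granule genes Mpo and Elane were highest. In the second WT library, where Ifitm6 was 49.0 FPKM against 15.0 and 15.9, lactoferrin (Ltf) was 195 FPKM against 40.0 and 31.6, Ngp 814 against 169 and 128, and S100a8 4389 against 824 and 760. Early granule genes were also highest there among the WT libraries, with Mpo at 1532 FPKM against 788 and 785. In the double knockout, Ltf was 189 and 98.3 FPKM and Ngp 631 and 617, both genes below the second WT library. In Bcor-/- LSK, where Ifitm6 was 8.68 and 4.32 FPKM, Ltf was 45.3 and 28.7 FPKM and Ngp 180 and 182, near WT, while Mpo, a gene of early granules, reached 4710 and 8426 FPKM against 785 to 1532 in WT. Camp, the cathelicidin of late granules, did not follow Ifitm6 there, with 558 and 619 FPKM in Bcor-/- LSK against 136, 724 and 110 in WT, nor did S100a8, with 2796 and 2648 FPKM.

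Over the 8 LSK libraries without the double knockout, Ifitm6 correlated at 0.83 with Ltf, 0.77 with Ngp and Lcn2, and 0.39 with S100a8, and at -0.30 with Mpo and -0.26 with Elane. Without WT replicate 2 they were 0.33 with Ltf and 0.12 with Ngp, so the likeness rests on that library, and Ltf and Ngp were singled out after their values had been seen. Over all 13 granulocyte markers the median correlation with Ifitm6 was -0.25, and -0.51 without that library. These correlations include the WT and Bcor-/- libraries by which Ifitm6 was chosen. In Dnmt3a-/- LSK, where Ifitm6 fell, 3 of 13 granulocyte markers (23.1%, against 0.443% of all genes) were called and all were lower, among them Camp (-1.99) and Lcn2 (-1.60), both with an adjusted p of 1. That count was 2 to 6 when single libraries were left out, 3 without WT replicate 2, and all were lower each time. In double knockout LSK, as a description, 2 of the 13 had an unadjusted p under 0.05 by limma, Lcn2 (1.63) and Camp (1.52), both higher. Of all 11952 genes tested there, 4878 had such a p. The summed level of the 13 markers was 3619, 13730 and 3636 FPKM in WT LSK and 2687 to 4102 in Dnmt3a-/-. It was 18520 and 26510 FPKM in the Bcor-/- libraries and 8642 and 8837 in the double knockout. Their part in the differences of Ifitm6 was not tested.

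In MEP the sum of the 13 granulocyte markers was raised in the same libraries as Ifitm6. It was 323 to 1116 FPKM in the 8 other libraries and 7006 and 15950 in the double knockout, higher in the second replicate, as was Ifitm6. Over the 8 MEP libraries without the double knockout, the median correlation of Ifitm6 with the 13 markers was -0.30, positive for 6, and -0.10 without WT replicate 2. Of 13 granulocyte markers 9 were called higher in double knockout MEP and 0 lower, 69.2% against 30.9% of all genes, with a median difference of 2.37, led by Lcn2 (4.87, adjusted p = 9.5e-04) and Ngp (4.80, adjusted p = 6.6e-04) by limma. The 4 that were not called were Mpo, Elane, Prtn3 and Ctsg, which encode proteins of early granules, with Mpo at 55.1 and 120.7 FPKM against 10.8 to 96.1 in WT and 263 and 145 in Bcor-/- MEP. Of 13 markers of monocytes and macrophages 9 were called higher and 0 lower (69.2%). C1qa, C1qb and Adgre1 averaged under 1 FPKM in the other genotypes and passed the filter only through the double knockout, where they were high. Without the filter 10 of 14 were called, all higher. The sum of the listed markers was higher in the first replicate, with 807 FPKM against 373.5 in the second and 44.9 to 95.8 in the other libraries. The macrophage gene C1qa was 174 FPKM in the first and 0.62 in the second double knockout MEP library, while Ifitm6 was 50.4 and 163.

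**Figure D4:**
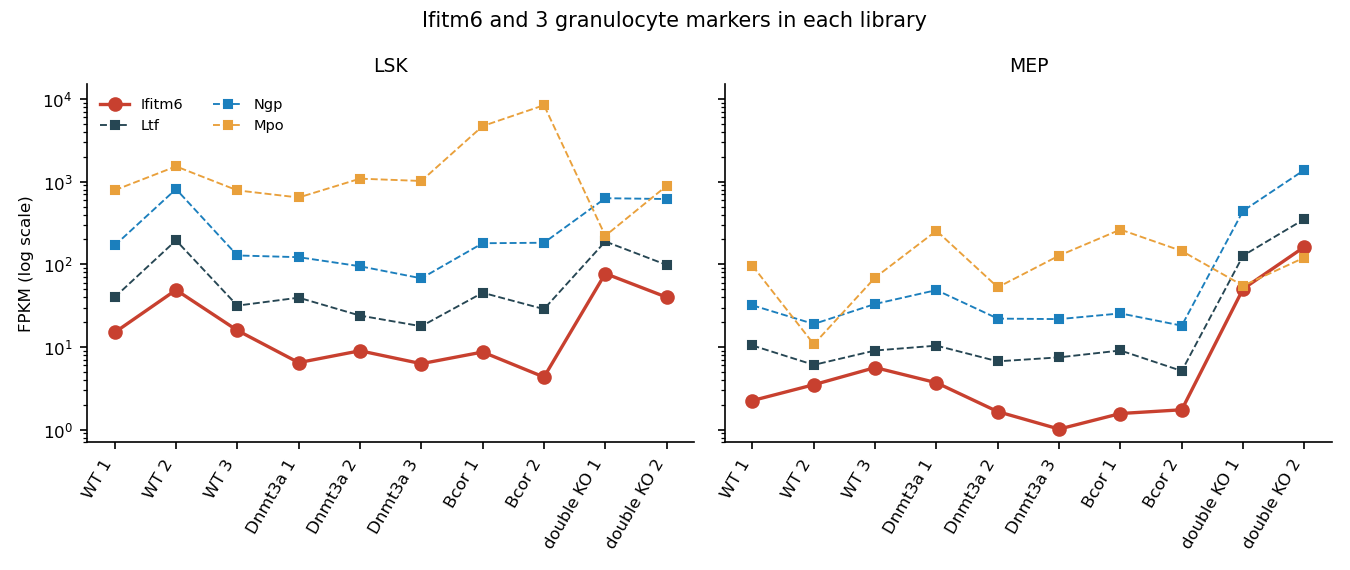
FPKM on a log axis of Ifitm6 and of the granulocyte markers Ltf and Ngp (late granules) and Mpo (early granules) in each library of LSK (left) and MEP (right), with lines joining the points of 1 gene for legibility only. Ifitm6, Ltf and Ngp are higher in WT 2 of LSK and in the double knockout libraries than in the rest, whereas Mpo peaks in Bcor-/- LSK at 4710 and 8426 FPKM. Ltf and Ngp were picked from 13 granulocyte markers after their values had been seen, and in double knockout LSK both lie below WT 2.

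Since the family is induced by interferon, its values were set beside a list of 47 interferon-stimulated genes. In double knockout MEP, 24 of the 42 that could be tested were called higher and 0 lower, which is 57.1% of the list against 30.9% of all genes, with a median difference of 1.32 against 0.02 over all genes. Ifit1, Ifit3, Oas2 and Ifi44 were under 1 FPKM in every library of the other genotypes and passed the filter only through the double knockout, where they were high. Without the filter 25 of 47 were called, all higher. The largest were Rsad2 (viperin), at 4.66 with an adjusted p of 0.0081 by limma, and Isg15, a ubiquitin-like modifier, at 4.18 with an adjusted p of 0.0078. Both were uneven, with Rsad2 at 16.9 and 354 FPKM and Isg15 at 31.7 and 430.3 in the 2 libraries against 1.54 to 2.51 and 3.54 to 7.36 in WT. Without replicate 2 of the double knockout 39 genes were called, 38 of them higher, and without replicate 1 18 were called, 16 of them higher. Set beside these 42 genes, Ifitm6 (4.32) lay below 1 of them, Ifitm3 (0.69) below 31, Ifitm1 (-0.19) below 41 and Ifitm2 (-0.75) below all 42.

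In double knockout LSK, 20 of 46 interferon-stimulated genes were called, 19 higher and 1 lower (Oasl2, -0.92), which is 43.5% of the list against 28.3% of all genes, with a median of 0.55 against 0.02 over all genes. Ifi27l2a (2.75) and Isg20 (2.35) were the largest. The count was 34 higher and 0 lower without replicate 2, and 13 higher and 12 lower without replicate 1, so the replicates differed in direction for part of the list. Ifitm1 (-3.31), Ifitm2 (-1.59) and Ifitm3 (-1.32) all lay below Oasl2, the lowest of the 46, and Ifitm6 (1.25) lay below 8 of them. In Bcor-/- LSK 3 of 46 were called, all lower (Gbp6, -0.78, and Mx2, -0.75, were the largest), and the median was -0.29. This is 6.52% of the list, below the 13.2% of all genes called, but with 1 variance per genotype 7 of 46 were called. That count was 0 without Bcor-/- replicate 2, 6 without replicate 1 and 1 without WT replicate 1. These LSK counts come from the contrasts used in the selection and are a description.

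Over the 8 LSK libraries without the double knockout, Ifitm6 correlated positively with most of the list. The median correlation with the 46 genes was 0.53, positive for 42 of them, and 0.61 without WT replicate 2, positive for 40. Irf7 was at 0.75 and then 0.77, Rtp4 at 0.77 and 0.81 and Oas3 at 0.60 and 0.82, while Ifih1 was at -0.67 and -0.70. Ifitm3 had a median of 0.62 with the same genes, positive for 40. In MEP the median for Ifitm6 was 0.21 over 42 genes, and 0.20 without WT replicate 2. These are descriptions over libraries that share genotypes. The LSK values include the WT and Bcor-/- libraries by which Ifitm6 was chosen. The median of the list was also below 0 in Bcor-/- LSK (-0.29). A median correlation over all genes was not computed, so the values have no background beside them.

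In Dnmt3a-/- cells 2 of 46 genes were called in LSK, Isg15 (-0.72) and Irf7 (-0.71), and 2 of 42 in MEP, Zbp1 (-0.70) and Irf7 (-0.70), all lower and all with an adjusted p of 1. These are 4.35% and 4.76% of the list, against 0.443% and 0.412% of all genes. In MEP the count was 0 without WT replicate 1 and without Dnmt3a-/- replicate 1 or 2, and 1 without WT replicate 2 or Dnmt3a-/- replicate 3. It was 0 with quantile normalization, 1 without the filter and 5 with 1 variance per genotype. The median of the list was -0.16 in LSK and -0.22 in MEP. In Bcor-/- MEP 1 of 42 was called, Irf7 (-0.82, adjusted p = 0.86), 2.38% against 2.76% of all genes, while Ifitm1 (1.44) and Ifitm3 (0.54) lay above all 42. That count was 0 without WT replicate 1 or 2, without either Bcor-/- library and with quantile normalization, 2 with a pseudocount of 0.1 FPKM and 3 with 1 variance per genotype. Against Bcor-/- MEP, 23 of 42 (54.8%, against 27.9% of all genes) were called higher in the double knockout and 0 lower. Ifit1, Ifit3, Oas2 and Ifi44 are among the 42 only through the double knockout, where they were high, and without the filter 25 of 47 were called, all higher. The count fell without either Bcor-/- library and rose without double knockout replicate 2.

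**Figure D5:**
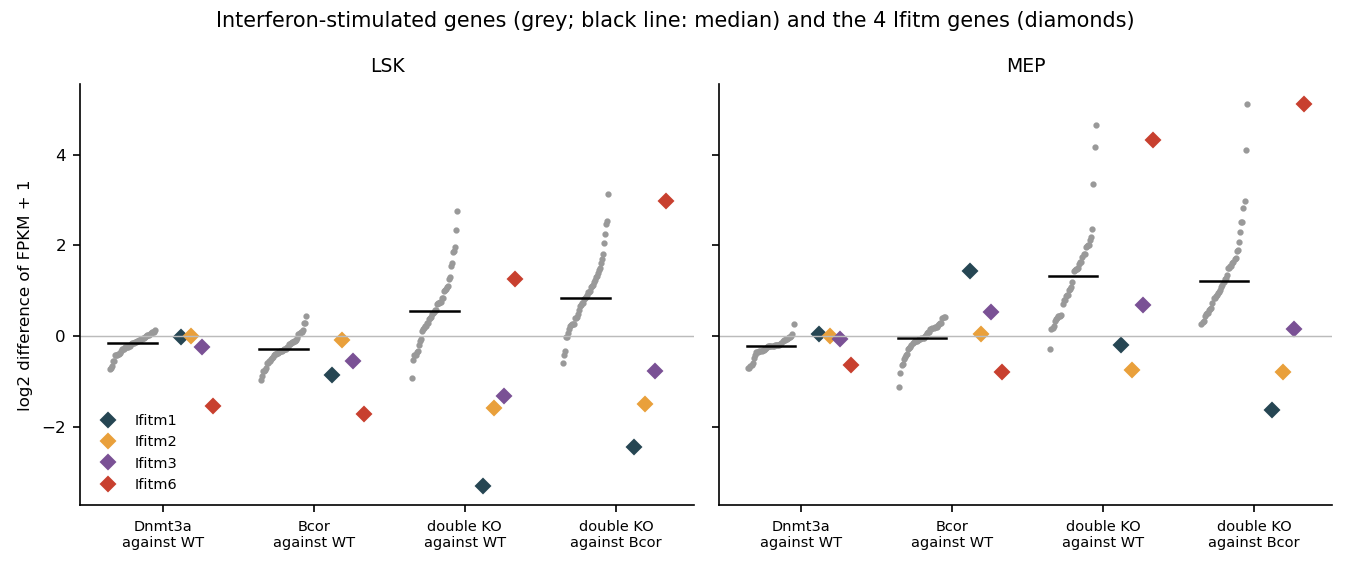
Differences of log2(FPKM + 1) for the interferon-stimulated genes that could be tested (grey points, 46 in LSK and 42 in MEP, with their median as a line) and the 4 Ifitm genes (diamonds), for 4 comparisons, with the double knockout written as double KO. In the double knockout against WT the median of the list is 0.55 in LSK and 1.32 in MEP, while Ifitm1 and Ifitm2 lie below 0 in both.

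Among the receptors and signalling genes of the interferon pathway, 10 of 18 were called higher in double knockout MEP and 1 lower, together 61.1% against 30.9% of all genes. The largest were Socs3, an inhibitor of cytokine signalling (2.71, adjusted p = 0.0026), and Irf7, a transcription factor of the interferon response (2.01, adjusted p = 0.0033), and Ifngr1, a chain of the interferon gamma receptor, fell by 0.63 (adjusted p = 0.0014), all by limma. In double knockout LSK 8 of 19 were called (42.1%, against 28.3% of all genes) and all were higher, among them Irf7 (1.97) and Irf8 (1.67), the latter through the second replicate alone, with 50.8 and 380.4 FPKM against 33.8 to 62.0 in WT. Irf7 was 89.2 and 58.3 FPKM there against 17.1 to 18.4 in WT, and 65.7 and 28.9 in double knockout MEP against 7.12 to 12.7, so both replicates were above WT in both cell types.

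Irf7 is also on the list of genes around the Ifitm cluster, though not among the closest, and the listed genes were mixed in direction, as the members were. The list leaves out some nearer genes, such as Ric8a. Of 15 neighbours tested in double knockout LSK, 5 were called higher, led by Irf7 (1.97) and Pkp3 (1.15), and 3 lower, led by Sirt3 (-1.72) and B4galnt4 (-1.25), together 53.3% against 28.3% of all genes. The count was 5 without double knockout replicate 2 and 4 with 1 variance per genotype. Of 14 tested in double knockout MEP, 2 were called higher, Irf7 (2.01) and Pkp3 (1.35, adjusted p = 0.0038), and 2 lower, Hras (-0.87) and Athl1 (-0.79), 28.6% of those tested and near the 30.9% of all genes. The count was 8 without double knockout replicate 1, 7 without replicate 2 and 1 with 1 variance per genotype. In Bcor-/- LSK 0 of 15 neighbours were called by limma, 5 had an unadjusted p under 0.05, and the median was -0.22, beside 13.2% of all genes called. That count was 5 (1 higher and 4 lower) without Bcor-/- replicate 1, 3 without WT replicate 2 and 1 with quantile normalization.

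How far the members varied together differed between pairs. Over the 8 LSK libraries without the double knockout, Ifitm1 and Ifitm3 correlated at 0.90, Ifitm2 and Ifitm3 at 0.54, and Ifitm1 and Ifitm2 at 0.49, while Ifitm6 was at 0.61 with Ifitm3, 0.39 with Ifitm1 and -0.03 with Ifitm2. In MEP without the double knockout, Ifitm1, Ifitm2 and Ifitm3 correlated at 0.68 to 0.84 with each other and Ifitm6 at 0.09 to 0.43 with them. With the double knockout libraries included, Ifitm6 and Ifitm2 correlated at -0.66 in LSK and -0.90 in MEP, values that rest on those 2 libraries of each table. All LSK correlations of Ifitm6 include libraries by which it was chosen.

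The genes with the pattern most like each member were found over the 10 libraries of a table. In LSK, Ifitm1 was closest to Vldlr (r = 0.997), Angpt1 (0.996) and Spns2 (0.995). Angpt1, which encodes a ligand of the Tie2 receptor and was also listed as a stem cell marker, had 116 to 160.5 FPKM in WT, 80.3 and 43.4 in Bcor-/- and 1.39 and 9.89 in the double knockout, the order of Ifitm1 itself, and the 2 correlated at 0.956 without the double knockout. Ifitm2 was closest to Pak1 (0.994), Idh2 (0.993) and Pebp1 (0.992), but at 0.516 to 0.633 without the double knockout. Ifitm3 was closest to Sirt3 (0.984), from the list of genes around the cluster, at 0.950 without the double knockout. Ifitm6 was closest to Adam8 (0.942), a metalloproteinase, N4bp2l1 (0.933) and Mmp9 (0.925), the gelatinase of neutrophil granules, and these were 0.83 to 0.90 without the double knockout and 0.59 to 0.72 when WT replicate 2 was left out as well.

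In MEP the closest genes were others throughout. They were Ankrd10 (0.959), Dlg4 (0.955) and P3h3 (0.949) for Ifitm1, Rsad1 (0.991), Thada (0.983) and Fdxr (0.980) for Ifitm2, and Cyb5d2 (0.943), Hoxb4 (0.942) and Ptk2b (0.942) for Ifitm3. For Ifitm6 they included Serpinb9 (0.995), an inhibitor of granzyme B, and Grap2 (0.989). The highest correlations among all genes over 10 libraries are high by selection, and no p is given for them. Those of Ifitm6 in LSK also include the libraries by which it was chosen.

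The summed level of the stem cell markers was lower in the same LSK genotypes as Ifitm1. The sum of the listed markers was 1247 to 1468 FPKM in WT, 948 and 631 in Bcor-/-, and 197 and 398 in the double knockout, with the lower value in the replicate where Ifitm1 was lower. Not every marker followed, since Ly6a was 63.5 and 220.2 FPKM in the double knockout against 59.8 to 70.7 in WT, and over the 10 libraries Slamf1 correlated with Ifitm1 at -0.01, Ly6a at -0.28 and Mllt3 at -0.32. Without the double knockout these 3 were at 0.79, 0.55 and 0.83, and the median over the 12 markers was 0.85. Of 12 tested, 9 were called lower and 0 higher in double knockout LSK (75% against 28.3% of all genes), led by Cd34 (-5.17) and Angpt1 (-4.78), and 5 were called lower and 0 higher in Bcor-/- LSK (41.7% against 13.2%). The latter count was 3 without WT replicate 1 or 3 or without Bcor-/- replicate 2, and in the double knockout 9 were called lower whichever library was left out, with 1 called higher without double knockout replicate 1. Their part in the differences of Ifitm1 was not tested.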

How the data were processed

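RNA was measured in 20 libraries, 10 of LSK and 10 of MEP. The authors deposited FPKM of 24315 genes per cell type, made per the submitters' processing notes with STAR 2.5.1b, SAMtools 1.9 and Cufflinks 2.2.1 on mm9. The annotation and the scaling between libraries are not given in the sources used here. Read counts and absolute depths are not given, so no counting error was computed, and a gene listed at 0 can be a failed estimate. The tables were used as deposited.

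Differences were taken on log2(FPKM + 1), which understates the fold change of low genes, for genes averaging 1 FPKM or more in the 10 libraries of their table. All 4 genotypes entered 1 fit of limma 3.58.1 (R 4.3.3) with a mean-variance trend, two-sided. A call needed an unadjusted p below 0.05 together with more than 1.5-fold change, as in the study's methods, where no test is named. Adjusted p-values are Benjamini-Hochberg values over the tested genes of a table. The exact permutation test was two-sided, on log2(FPKM + 1). The fits were tested on simulated data.

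The members and the gene lists were chosen with earlier results of these data known. Other genes named are Bcor and Dnmt3a, the 3 genes with the highest Pearson r to each member, up to 2 called genes per list and direction with the largest differences, and markers with a described level. One gene that this rule names is not reported here. Alternatives were a pseudocount of 0.1, no filter, quantile normalization, no trend, a replicate block, a fit of the compared genotypes alone, 1 variance per genotype, the adjusted p, and leaving out each library. Leaving out libraries for the counts of called genes in lists was chosen after seeing the data. Promoters come from RefSeq (GRCm38.p6), motifs were searched by letters, and exons and shared runs of 50 bases come from GENCODE M21. Figures were drawn with matplotlib 3.10.9.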

Additional observations from a re-analysis of the deposited data

Results flagged for a closer look

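Ifitm1 in Bcor-/- cells, and Ifitm3 in Bcor-/- and double knockout cells, lay on opposite sides of WT in LSK and MEP. The libraries of the 2 groups did not overlap in either cell type. Of the 10773 genes tested in both, 2.73% were lower in Bcor-/- LSK and higher in Bcor-/- MEP in this way, and 1.88% in the double knockout. In Bcor-/- cells Ifitm1 differed by -0.86 in LSK and by 1.44 in MEP. Ifitm3 differed in Bcor-/- cells by -0.54 in LSK and by 0.54 in MEP, and in double knockout cells by -1.32 in LSK and by 0.69 in MEP. Of the MEP differences, that of Ifitm3 in Bcor-/- was not called (limma adjusted p = 0.913). Those of Ifitm1 in Bcor-/- and Ifitm3 in the double knockout had limma adjusted p-values of 0.885 and 0.057. Both lost their call without WT replicate 1. The difference between the cell types was itself not tested, because the tables were made separately, and the LSK values belong to the contrasts that chose the genes.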

How the results depend on the processing

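Groups of 2 or 3 libraries limit the precision, and read counts are not given, so what depth limits was not tested. Each of 32 differences (4 genes, 4 comparisons, 2 cell types) was recomputed under other settings, 564 values in all. Of the 360 values of the 20 tested differences, 319 kept their direction and their side of the limits for a call. The 204 values of the 12 differences that are descriptions all kept their direction. Quantile normalization moved the median of all genes in double knockout against WT MEP from 0.02 to -0.17, and relative to that median Ifitm2 was -0.64, Ifitm3 0.83 and Ifitm6 4.36. It turned Ifitm2 to 0.0086 in Dnmt3a-/- LSK and to -0.071 in Dnmt3a-/- MEP, and moved it to -0.34 in Bcor-/- LSK.

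With the adjusted p the calls were lost for Ifitm6 in Dnmt3a-/- LSK (-1.54), Ifitm1 in Bcor-/- MEP (1.44), Ifitm3 in double knockout MEP (0.69) and Ifitm1 in double knockout against Bcor-/- MEP (-1.63). The value of Ifitm1 in Bcor-/- MEP also lost its call without the filter and without the trend (1.44 in both). With 1 variance per genotype, Ifitm3 in double knockout MEP (0.69) and Ifitm1 against Bcor-/- MEP (-1.63) lost theirs, the latter also without the filter (-1.63). Ifitm6 in Bcor-/- MEP was called in the fit of the compared genotypes (-0.79) and with 1 variance per genotype (-0.79). The causes were not tested.

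Leaving out 1 library gave differences of -0.095 to 0.086 for Ifitm1 and -0.057 to 0.067 for Ifitm2 in Dnmt3a-/- LSK, and in Dnmt3a-/- MEP -0.49 to 0.45 for Ifitm1, -0.087 to 0.056 for Ifitm2 and -0.32 to 0.088 for Ifitm3. In Bcor-/- MEP they were 0.89 to 1.83 for Ifitm1, -0.0060 to 0.075 for Ifitm2 and 0.41 to 0.67 for Ifitm3, which was called without WT replicate 3 (0.67). In double knockout MEP they were -0.73 to 0.21 for Ifitm1, above 0 without WT replicate 3 or double knockout replicate 2, and 0.56 to 0.82 for Ifitm3, and Ifitm1 against Bcor-/- MEP ran from -1.90 to -1.35. Ifitm6 in double knockout MEP stayed called, with an adjusted p of 9.7e-05 to 0.0055 by limma, where a lone double knockout library is assumed to vary like the other genotypes, so this is no check of the spread within the double knockout.

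The replicate numbers are shared between genotypes, but the labels name different mice. Libraries of 1 number did not deviate together in LSK (correlations of -0.06 to 0.09). In MEP the correlations were 0.12 to 0.21 among the mutant genotypes and -0.19 to 0.34 with WT, of both signs. The numbers were not taken as pairs, and a replicate block was fitted as an alternative. With the replicate block Ifitm6 in double knockout MEP differed by 4.32 and Ifitm3 in Bcor-/- MEP by 0.56, and none of the 20 tested results crossed a limit and none of the 32 turned.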
